A study of Mus musculus with 933 samples.

Results

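Transcript levels were compared between 25 mouse blastocysts that had received EpiM small RNA and 26 that had received GFP, 51 of the 933 single embryos sequenced in the study. They were chosen by their labels alone: every embryo of the table with this experiment whose label gives caput sperm with EpiM small RNA, against every embryo whose label gives caput sperm with GFP. Both groups come from eggs into which 1 sperm each was injected (ICSI), and that sperm was taken from the caput, the head of the epididymis where its passage begins. Both are of strain FVB, were injected as zygotes 3 h after ICSI, were cultured in KSOM medium and were sequenced as single embryos by Smart-seq2. They thus share the caput sperm and the injection, and differ in what was injected. The same table holds 39 uninjected blastocysts made with sperm of the cauda, the tail of the duct where mature sperm are stored, and these entered the fit as a further group. The labels do not spell out EpiM, do not say in which form GFP was given or whether GFP went in beside the EpiM small RNA, and do not name the males, so each embryo is counted as a replicate and the p-values measure the spread between embryos. The comparison asks whether small RNA put into a zygote of caput sperm changes the transcripts of the blastocyst several divisions later.

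As background, sperm gain small RNAs while they pass along the epididymis, among them microRNAs and fragments of transfer RNA, many of them delivered in vesicles released by the epididymal epithelium. Caput sperm carry a different set of these RNAs from cauda sperm. A blastocyst is a hollow ball with an outer trophectoderm, which forms the placenta, and an inner cell mass, from which the embryo and the primitive endoderm arise.

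The values are TPM, transcripts scaled to the same total in every library; sequencing depth cannot be recovered from them and is unknown. Between 7875 and 11006 genes reached 1 TPM in EpiM embryos and between 8350 and 11057 in GFP embryos, with medians of 10134 and 10232. The labels give 7 numbered sessions. The lowest-numbered pair was joined as the merged session, because title and description disagree on it for 8 cauda embryos. After that 4 sessions held both groups: 6 EpiM and 2 GFP embryos in the merged session, 7 and 7 in 0207, 7 and 8 in 0208, and 2 and 5 in 0212. Session 0213 held 3 EpiM embryos and no GFP or cauda embryo, and session 0211 held 4 GFP embryos and no EpiM embryo. With session as a covariate, the 3 embryos of session 0213 are taken up by their own session term. They therefore do not enter the fitted difference between EpiM and GFP, only the estimate of spread. Trophectoderm genes checked the stage label: Krt8, a keratin of this outer layer, had a median of 4925 TPM in EpiM and 4801 TPM in GFP embryos, and Cdx2, its defining transcription factor, 344.1 and 346.9 TPM. Of the 51 libraries 5 stood apart with fewer than 9000 genes at 1 TPM, 3 of EpiM and 2 of GFP, and 4 of the 5, 2 in each group, had less Cdx2 than any of the others. An EpiM embryo of session 0207 had Krt8 at 97.7 TPM and Cdx2 at 23.2 TPM, and GFP embryos of sessions 0208 and 0212 had Krt8 at 632.8 and 989.5 TPM and Cdx2 at 34.5 and 40.4 TPM, against at least 1475 TPM and 126.4 TPM in each of the 46 libraries with more genes. An EpiM embryo of the merged session had Cdx2 at 82.5 TPM, with Krt8 at 1643 TPM. The main counts are given below with and without these 5 libraries.

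Blastocysts with EpiM small RNA had lower levels of a small set of transcripts and no called increase. Of 11384 genes tested with limma on log2(TPM + 1) with session as a covariate, 53 were lower with EpiM than with GFP (0.466% called, adjusted p under 0.05) and 0 were higher, while 542 genes had an unadjusted p under 0.05. The 53 genes fell by 1.6-fold to 5.55-fold, with a median of 2.19-fold, and had a median of 15.9 TPM across EpiM group means and 29.2 TPM across GFP group means. They are spread over 18 chromosomes. None is on the X chromosome, which is given without the share of X-linked genes among those tested and is not read as a trait of the called genes. No gene separated the groups: for none of the 53 did every EpiM embryo lie below the lowest GFP embryo, and between 18 and 25 of the 25 EpiM embryos lay below the GFP median, depending on the gene. Without the 5 libraries under 9000 genes 42 genes were lower, 36 of them among the 53. The number of calls depends on which embryos enter and on what counts as a unit. With embryos averaged by session and group 0 genes were called (limma, 443 at an unadjusted p under 0.05). In sessions 0207 and 0208 alone 2 were called, Cebpb and Hdgf. Without session 0207 a single gene was called, Ppp1r14b, and without the merged session 7 genes were called. Without session 0208 or 0212 49 and 51 genes were called, and without 0211 28. Without 0213 55 were called, but this is no check, since that session cannot move the fitted difference. With EpiM and GFP embryos alone 9 genes were called, whether the merged pair of sessions was kept apart or not. The size of the change was also smaller without the cauda embryos. The median log2 change of the 53 was then -0.94 with that pair kept apart and -0.92 with it merged, against -1.13 in the main fit. With all 3 groups and that pair kept apart 60 were called. In every one of these fits all 53 genes had a lower value with EpiM. They were chosen for that direction in the main fit, and these fits reuse its embryos, so the shared sign is no separate support.

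**Figure D1:**
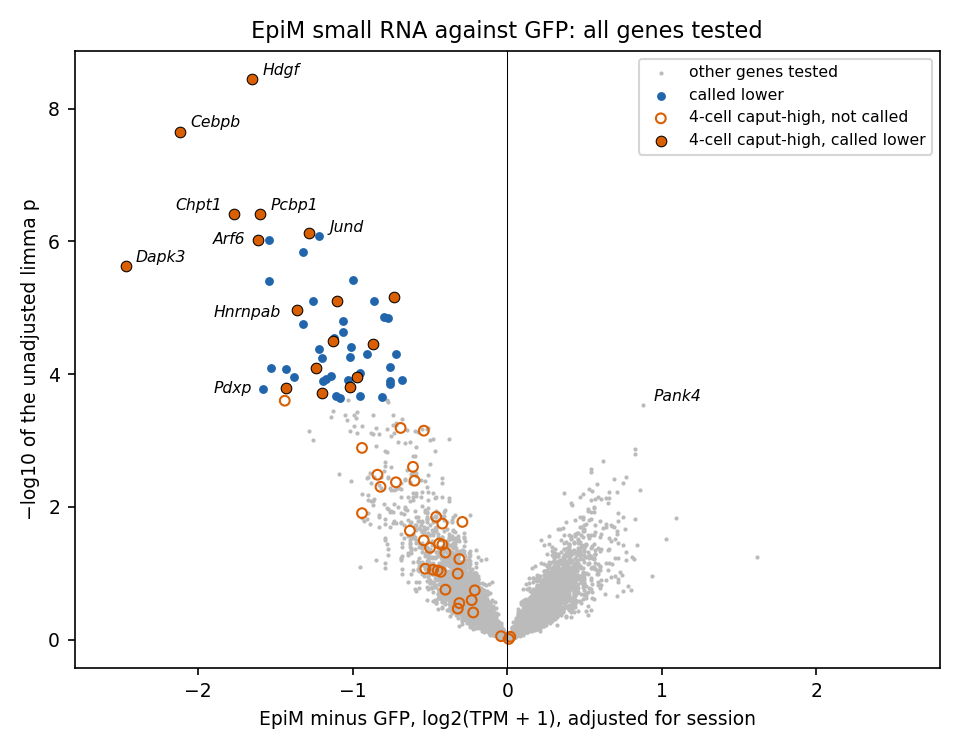
Change of each of 11384 genes between EpiM and GFP blastocysts (x axis, EpiM minus GFP on the log2(TPM + 1) scale, adjusted for session) against the −log10 of its unadjusted limma p (y axis). All 53 called genes lie to the left, filled points, and 17 of them, in orange, are among the genes that were higher with caput sperm in both 4-cell cohorts.

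Hdgf, which encodes a nuclear growth factor of the hepatoma-derived family (chromosome 3, 87906090 to 87916132, build mm10), had the smallest p. It ranged from 51.1 to 302.4 TPM in EpiM embryos with a median of 96.2, and from 88.1 to 802.9 TPM in GFP embryos with a median of 264.6. The ranges overlap, but 23 of 25 EpiM embryos lay below the GFP median and 10 below the lowest GFP embryo. It was 3.13-fold lower with EpiM, a change of -1.65 ± 0.25 on the log2(TPM + 1) scale (SE, limma, adjusted p = 4.07e-05). In session 0207 the groups did not overlap, with 51.1 to 140.2 TPM in 7 EpiM embryos and 183.7 to 687.2 TPM in 7 GFP embryos, whereas the 3 EpiM embryos of session 0213 held 166.7 to 302.4 TPM, inside the GFP range.

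Cebpb, for the transcription factor C/EBP beta (chromosome 2, 167688915 to 167690432), was listed at 0 TPM in 20 of 25 EpiM embryos and in 5 of 26 GFP embryos. Its median was 0 with EpiM, with a highest value of 6.35 TPM, and 5.04 TPM with GFP, with a highest value of 17.7 TPM. The fitted change was -2.12 ± 0.34 (SE, limma, adjusted p = 0.000127). All 13 EpiM embryos of the merged session and session 0207 were at 0, while 2 of the 3 EpiM embryos of session 0213 were not. Dapk3, for a serine/threonine kinase that acts on myosin and in cell death (chromosome 10, 81182987 to 81193197), had the largest change among the 53, at -2.47 ± 0.49 (SE, limma, adjusted p = 0.0027). It ranged from 0 to 97.8 TPM with EpiM, median 18.3, and from 1.35 to 173.0 TPM with GFP, median 65.8. The 6 EpiM embryos of the merged session were all low, between 0 and 3.64 TPM, below both GFP embryos of that session at 12.7 and 48.7 TPM.

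Chpt1, the enzyme for the last step of phosphatidylcholine synthesis (chromosome 10, 88469513 to 88503970), ranged from 1.28 to 37.8 TPM with EpiM and from 2.82 to 71.4 TPM with GFP, with medians of 8.87 and 33.7 TPM. It fell 3.42-fold and 24 of 25 EpiM embryos lay below the GFP median. Its groups did not overlap in session 0207 by a small margin, at 1.28 to 26.6 against 26.9 to 59.5 TPM. Arf6, a small GTPase of endocytosis and the cell cortex (chromosome 12, 69372150 to 69375980), had medians of 8.14 TPM with EpiM and 34.0 TPM with GFP, over ranges of 1.62 to 41.4 and 4.1 to 74.1 TPM. It fell 3.05-fold, with no drop among the 2 EpiM and 5 GFP embryos of session 0212, where the difference was 0.09. Snf8, a subunit of the ESCRT-II complex of endosomal sorting (chromosome 11, 96034885 to 96047430), was at 7.16 to 107.5 TPM with EpiM and 27.6 to 198.9 TPM with GFP, with medians of 37.2 and 95.6 TPM. It fell 2.44-fold and was lower with EpiM in each of the 4 sessions that held both groups.

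**Figure D2:**
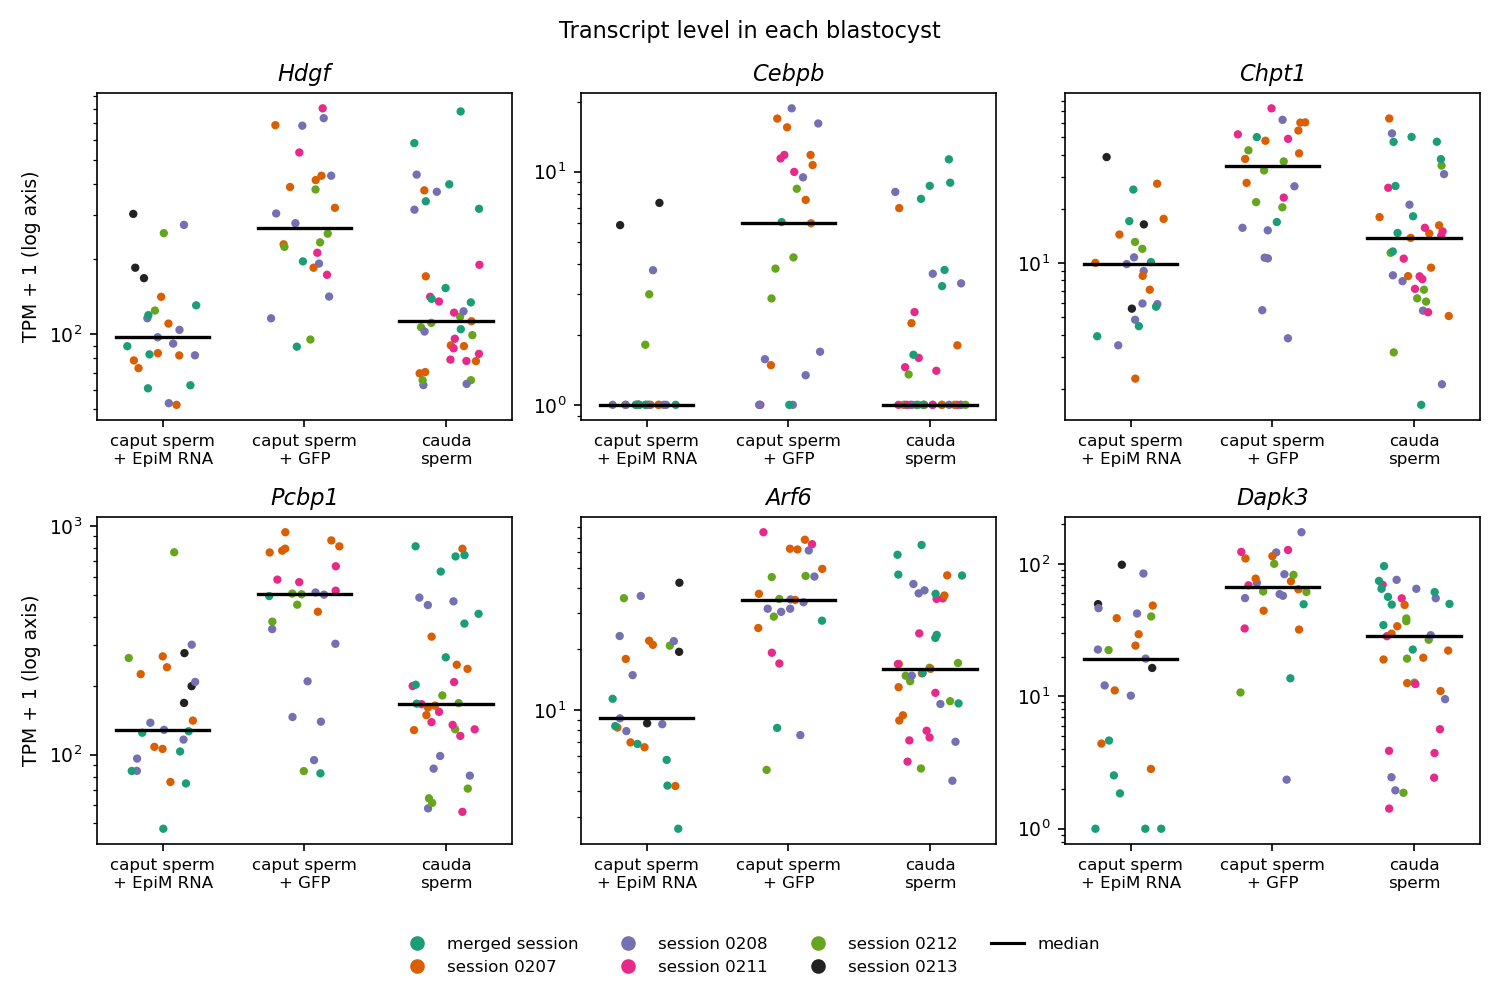
TPM + 1 on a log axis of 6 called genes in each blastocyst, for EpiM, GFP and cauda embryos from left to right, coloured by session, with a bar at the median. EpiM embryos lie lower as a group, while the ranges of the groups overlap for each gene.

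Promoters of 4 of the called genes described are shown, so that the sequences at their start sites can be compared. Each is the 250 bases before a RefSeq transcript start (GRCm38.p6), that nearest to the outer edge of the gene in the table used, written 5′ to 3′ on the strand of the gene, with the GC box GGGCGG or its complement CCGCCC in capitals.
Hdgf, chr3:87906071-87906320, plus strand: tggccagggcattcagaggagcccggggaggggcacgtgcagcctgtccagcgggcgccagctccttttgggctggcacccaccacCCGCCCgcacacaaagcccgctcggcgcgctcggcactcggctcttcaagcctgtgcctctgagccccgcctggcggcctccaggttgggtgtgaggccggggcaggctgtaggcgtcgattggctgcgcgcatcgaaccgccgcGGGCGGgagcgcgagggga
Cebpb, chr2:167688665-167688914, plus strand: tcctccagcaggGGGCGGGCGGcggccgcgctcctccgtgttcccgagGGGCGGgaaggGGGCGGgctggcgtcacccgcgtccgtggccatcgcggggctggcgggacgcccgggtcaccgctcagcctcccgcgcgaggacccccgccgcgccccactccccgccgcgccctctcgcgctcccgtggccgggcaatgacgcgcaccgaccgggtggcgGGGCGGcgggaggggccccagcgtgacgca
Dapk3, chr10:81182757-81183006, plus strand: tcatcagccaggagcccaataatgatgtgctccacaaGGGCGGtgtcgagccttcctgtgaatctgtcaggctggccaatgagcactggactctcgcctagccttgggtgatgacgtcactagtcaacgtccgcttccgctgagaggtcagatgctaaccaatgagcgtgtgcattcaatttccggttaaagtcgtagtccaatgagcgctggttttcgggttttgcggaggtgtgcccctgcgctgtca
Pcbp1, chr6:86526190-86526439, minus strand: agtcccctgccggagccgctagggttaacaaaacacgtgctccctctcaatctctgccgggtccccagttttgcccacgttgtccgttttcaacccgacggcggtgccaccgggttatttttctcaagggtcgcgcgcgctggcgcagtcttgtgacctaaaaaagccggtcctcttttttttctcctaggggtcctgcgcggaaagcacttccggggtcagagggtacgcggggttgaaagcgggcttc
The Cebpb window is 81.6% G or C with 41 CpG and 5 GC boxes, of which 2 overlap, and that of Hdgf is 72.8% G or C with 26 CpG and 2 GC boxes. The Dapk3 window holds 14 CpG, 1 GC box and 4 copies of CCAAT or its complement ATTGG, and that of Pcbp1 holds 22 CpG and no copy of either. RefSeq windows were found for 43 of the 53 called genes and for 9107 of the 11384 tested. A GC box on either strand was in 31 of the 43 (72.1%) and in 5375 of the 9107 (59%), CCAAT in 32.6% and 38%, the TATA box TATAAA in 9.3% and 6.6%, and the E-box CACGTG in 11.6% and 8.61%. The median window held 20 CpG among called genes and 16 among all tested. Genes have several starts, and a window may lie inside the gene as RefSeq bounds it: this holds for 231 of the 250 bases shown for Hdgf, for 20 of those for Dapk3 and for none of those for Cebpb and Pcbp1. Windows reached into the gene for 12 of the 43 called genes and 4045 of the 9107 tested. These are letter matches and base counts, given with no test.

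Genes for RNA-binding proteins were among the calls. Of 29 tested genes for heterogeneous nuclear ribonucleoproteins and poly(C)-binding proteins, which package and process messenger RNA, 3 fell (10.3%, against 0.466% of all genes tested) and none rose, while the list had a median change of 0.01, close to the -0.004 over all genes tested. Pcbp1 (chromosome 6, 86524480 to 86526189) fell 3.03-fold, with a range of 46.4 to 765.8 TPM and a median of 127.3 in EpiM embryos, against 81.8 to 937.5 TPM and a median of 500.5 in GFP embryos. Its highest EpiM embryo came from session 0212, where the EpiM mean was above the GFP mean by 0.46 on the log2 scale. Hnrnpab (chromosome 11, 51600100 to 51606881) fell 2.57-fold, with a range of 28.5 to 393.5 TPM and a median of 140.2 in EpiM embryos, against 26.8 to 727.6 TPM and a median of 335.9 in GFP embryos. Hnrnpl was at 6.8 ± 3.6 TPM with EpiM and 11.8 ± 4.14 TPM with GFP (SD, n = 25 and 26) and was lower in all 4 sessions, with 15 of 25 EpiM embryos below the lowest GFP embryo. The splicing factor gene Srsf9 was the sole call among 20 tested SR factors, at 18.9 ± 10.9 against 35.7 ± 14.0 TPM (SD). Eif3b, part of the eIF3 complex that starts translation, was the sole call among 38 initiation factor genes, at 78.5 ± 48.3 against 151.5 ± 76.4 TPM (SD, limma, adjusted p = 0.0449). It was not called without the 5 libraries under 9000 genes. The 84 tested genes for cytosolic ribosomal proteins lay between -0.14 and 0.26 on the log2 scale, with none called and a median of 0.01. Ribosomal protein genes have many near-identical copies in the genome, and how the counting treated reads that match several copies is not given in the sources used here.

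Yrdc, an enzyme that helps make the t6A base of transfer RNA (chromosome 4, 124850759 to 124855242), was the sole call among 27 tested tRNA modification genes. It had 2.52 to 90.4 TPM in EpiM embryos with a median of 41.5, and 5.45 to 169.8 TPM in GFP embryos with a median of 89.0 (2.7-fold, limma, adjusted p = 0.039). The gene next to it, 1110065P20Rik (chromosome 4, 124849485 to 124850730), which lies outside the naming rule and was picked after its values were seen, was also called. It was at 8.11 ± 4.56 TPM with EpiM and 17.2 ± 8.02 TPM with GFP (SD), with all 25 EpiM embryos below the GFP median. Ino80b, a subunit of the INO80 chromatin remodelling complex, was the sole call among 24 genes of the INO80, ISWI and CHD families, at 4.14 ± 4.18 against 8.94 ± 6.72 TPM (SD), and was listed at 0 in 7 EpiM embryos and 1 GFP embryo. It was not called without the 5 libraries under 9000 genes. No gene of the SWI/SNF remodelling complex was called among 21 tested, where 0.466% of all genes tested were called. Of that list, Smarcd2 was at 15.3 ± 10.8 TPM with EpiM and 25.5 ± 12.3 TPM with GFP (SD, limma, adjusted p = 0.314), and 16 of the 21 values were negative with a median of -0.23.

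The other genes that the naming rule took are of mixed function. Cpox, for coproporphyrinogen oxidase of heme synthesis, was at 10.9 ± 9.03 TPM with EpiM and 24.9 ± 12.4 TPM with GFP (SD), a 2.91-fold fall with 24 of 25 EpiM embryos below the GFP median. Kctd6, an adaptor of cullin ubiquitin ligases, was at 7.75 ± 5.71 against 22.7 ± 14.5 TPM (SD), and all 25 EpiM embryos lay below its GFP median. Pdxp, a phosphatase of pyridoxal phosphate and cofilin, was at 29.1 ± 23.1 against 50.1 ± 22.7 TPM (SD), and its call was lost without the 5 libraries under 9000 genes. Slc44a1, a choline transporter, fell 2.88-fold in the fit although the group means were closer, at 18.1 ± 24.6 against 28.0 ± 21.2 TPM (SD). For it 18 of 25 EpiM embryos were below the GFP median, while the highest EpiM embryo reached 88.9 TPM. Rab2a, a GTPase between the endoplasmic reticulum and the Golgi, had the highest levels of these, at 93.2 ± 36.1 against 147.0 ± 34.6 TPM (SD), and fell 1.66-fold.

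Several called genes outside the naming rule are well known regulators, and were picked after their values were seen. Jund, an AP-1 transcription factor, was at 3.18 ± 2.72 TPM with EpiM and 6.71 ± 3.66 TPM with GFP (SD), lower in all 4 sessions. Foxo1, a transcription factor under insulin signalling, was at 5.28 ± 2.98 against 11.4 ± 5.19 TPM (SD). Hras, a small GTPase of growth factor signalling, was at 16.7 ± 10.3 against 29.2 ± 18.2 TPM (SD), without a drop in session 0212, where the difference was 1.13. Prkaca, the catalytic subunit of protein kinase A, was at 5.33 ± 4.03 against 12.7 ± 6.0 TPM (SD), and Ube2s, a ubiquitin-conjugating enzyme of the anaphase-promoting complex, at 38.5 ± 17.9 against 87.3 ± 53.6 TPM (SD), with all 25 EpiM embryos below the Ube2s median of GFP embryos.

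No gene was called higher. The smallest p in that direction belonged to Pank4, which resembles pantothenate kinases, at 0.22 to 17.8 TPM with EpiM, median 3.29, and 0 to 7.03 TPM with GFP, median 1.54. Its change of 0.88 ± 0.23 (SE) missed the threshold (limma, adjusted p = 0.0575) although 21 of 25 EpiM embryos lay above the GFP median. The calcium channel gene Trpv6 was at 4.74 ± 4.21 against 2.14 ± 2.42 TPM (SD, limma, adjusted p = 0.168) and E130311K13Rik at 5.09 ± 2.88 against 3.69 ± 3.19 TPM (SD, limma, adjusted p = 0.147).

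The genes called lower were compared with those that separate caput from cauda sperm at the 4-cell stage, in 4-cell embryos that share no library with these blastocysts. In 2 cohorts of such embryos, with 32 caput and 32 cauda embryos in the first and 23 and 23 in the other, caput sperm gave 114 higher genes (0.983%) and 16 lower (0.138%) in the first and 64 higher (0.556%) and 2 lower (0.0174%) in the other, and 53 genes were higher in both. Of the genes lower with EpiM 52 were tested there, 27 of them were higher with caput sperm in the first cohort and 17 in the other. Of these 53 caput-high genes 51 were tested here, and the other two, C2cd4b and Grin2d, were listed at 0 in most embryos of both groups. With EpiM small RNA 17 of the 51 were lower (33.3%, against 0.466% of all genes tested) and none was higher. They are Alyref, Arf6, Bag1, Cebpb, Chpt1, Dapk3, Dynll2, Eif3b, Hdgf, Hnrnpab, Nsmce4a, Pcbp1, Ppp1cc, Rab2a, Snf8, Ube2s and Yrdc. The median change of the 51 was -0.61, and 49 had a negative value, against a median of -0.004 and 5787 negative values among the 11384 tested. Without the 5 libraries under 9000 genes 13 were called and the median was -0.55. With embryos averaged by session and group 0 of the 51 were called, and with EpiM and GFP embryos alone 5. In the fit of EpiM and GFP embryos alone the median was -0.48, or -0.46 with the pair of sessions merged. Without session 0207 0 were called, with a median of -0.58 and 48 negative values, and without the merged session 4 were called, with a median of -0.36 and 47 negative values. The list comes from 4-cell embryos of the same study and is not an outside set.

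Across these 51 genes the embryos spread widely. The median log2(TPM + 1) over the 51 genes was computed for each embryo and ran from 3.41 to 5.92 with EpiM, with a middle value of 5.12, and from 3.83 to 6.49 with GFP, with a middle value of 5.83. Of the 25 EpiM embryos 24 lay below the middle GFP embryo, and the cauda embryos ran from 3.94 to 6.29 with a middle value of 5.36. The 3 lowest EpiM embryos, at 3.41, 3.66 and 3.87, and the 2 lowest GFP embryos, at 3.83 and 4.35, are the 5 libraries with fewer than 9000 genes at 1 TPM. The EpiM embryos at 3.41 and 3.66 belong to the merged session and that at 3.87 to session 0207. The GFP embryos at 3.83 and 4.35 belong to sessions 0208 and 0212. The differences by session given next include these libraries. In the merged session all 6 EpiM embryos, at 3.41 to 4.88, lay below both GFP embryos, at 4.94 and 5.84. Within sessions the difference was uneven. The median difference of the 51 genes was -1.18 in the merged session with 51 of 51 lower, -0.80 in session 0207 with 51 of 51 lower, -0.07 in session 0208 with 29 of 51 lower and 0.13 in session 0212 with 19 of 51 lower. Over all genes tested, the median difference in the same order was -0.07, -0.18, 0.18 and 0.08. The called genes, which were chosen on the pooled contrast, had within-session medians of -1.19, -1.14, -0.78 and -0.32 in the same order, and 37 of 53 were lower with EpiM in all 4 sessions. Over the 51 genes the middle EpiM embryo of session 0212 was at 5.68 and the middle GFP embryo at 6.05. The 0.13 given above for that session compares group means gene by gene instead. Whether the sessions differ, and what the libraries under 9000 genes add to these differences, was not tested.

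**Figure D3:**
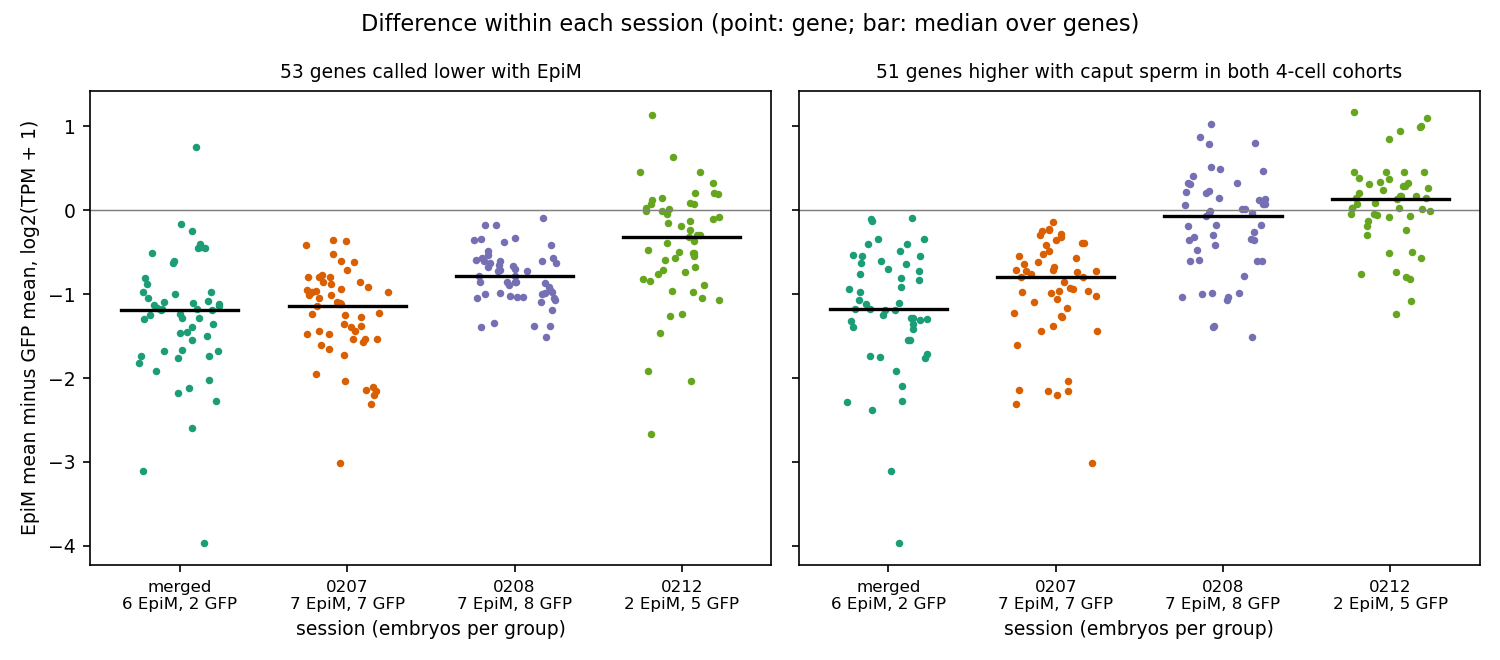
Difference of the EpiM mean from the GFP mean on the log2(TPM + 1) scale (y axis) within each session that held both groups (x axis, with embryos per group), a point per gene and a bar at the median. The 53 called genes on the left lie below 0 in most sessions, while the 51 caput-high genes on the right lie below 0 in the merged session and session 0207 and around 0 in sessions 0208 and 0212. Over all genes tested, not drawn, the median was -0.07 in the merged session, -0.18 in 0207, 0.18 in 0208 and 0.08 in 0212.

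**Figure D4:**
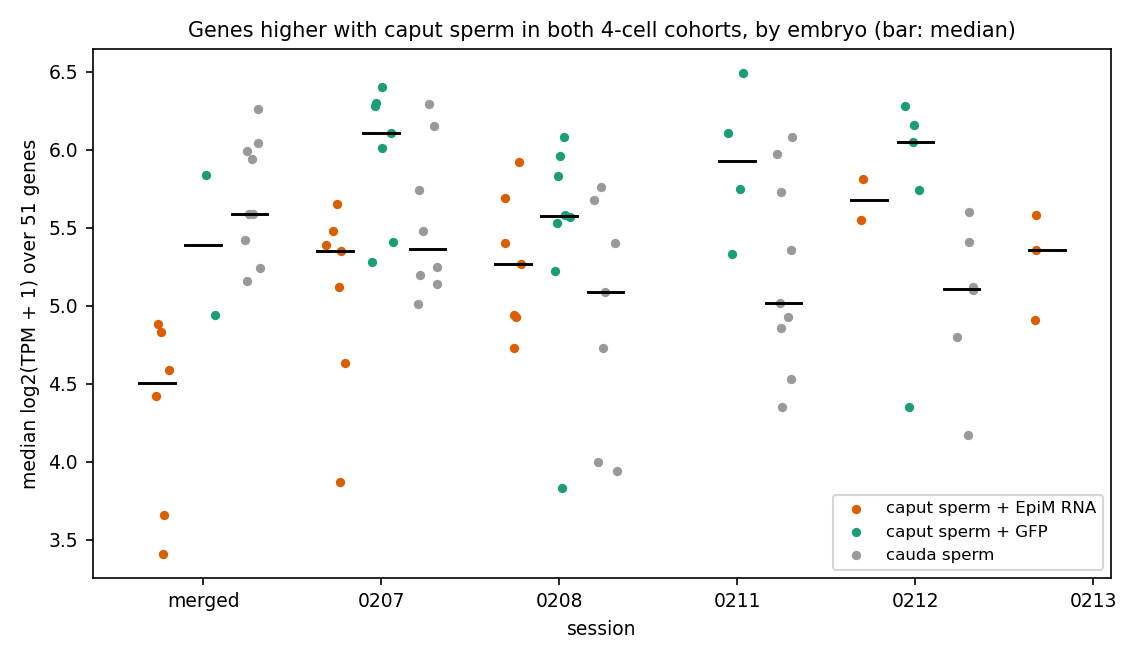
Median log2(TPM + 1) over the 51 caput-high genes (y axis) of each embryo by session (x axis), for EpiM, GFP and cauda embryos, with a bar at the median. The median EpiM embryo lies below the median GFP embryo in each of the 4 sessions with both, by the most in the merged session, at 4.50 against 5.39, and session 0207, at 5.35 against 6.11, while the groups overlap in sessions 0207, 0208 and 0212.

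The cauda embryos of the same table place both injected groups. Since EpiM minus GFP shares its GFP embryos with GFP minus cauda and its EpiM embryos with EpiM minus cauda, the values are given side by side and no overlap is read from them. In limma, EpiM minus cauda gave 0 calls among 11608 genes, 1163 of which had an unadjusted p under 0.05, and GFP minus cauda gave 49 higher genes (0.421%) and 4 lower (0.0343%) among 11648. Hdgf was at 119.8 ± 67.8 TPM in EpiM, 335.0 ± 204.8 TPM in GFP and 180.1 ± 160.4 TPM in cauda embryos (SD, n = 25, 26 and 39). Its log2 change was -0.59 ± 0.23 in EpiM minus cauda (SE, limma, adjusted p = 0.432) and 1.06 ± 0.22 in GFP minus cauda (SE, limma, adjusted p = 0.00605). Snf8 was at 43.5 ± 24.2, 101.9 ± 44.3 and 50.7 ± 31.2 TPM (SD), with -0.20 ± 0.22 for EpiM minus cauda and 1.09 ± 0.21 for GFP minus cauda. Arf6 was at 14.0 ± 10.9, 37.1 ± 19.3 and 21.4 ± 15.9 TPM (SD), with -0.78 ± 0.28 for EpiM minus cauda and 0.83 ± 0.27 for GFP minus cauda, neither called. The median change of the 51 caput-high genes was -0.35 in EpiM minus cauda and 0.33 in GFP minus cauda. With no call in EpiM minus cauda the groups are not shown to be equal. Over the 51 genes the middle cauda embryo of the merged session was at 5.59, against 5.02 to 5.36 in the other sessions.

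Another cohort of blastocysts in the study, with no library in common, had received RNA that the labels name miRNA (30 embryos) or tRF, fragments of transfer RNA (30 embryos), against 32 embryos of caput sperm alone. Of the 53 genes lower with EpiM 52 were tested there, and 34 were lower with miRNA than with caput sperm alone, against 3.02% of all genes tested there (366 of 12113; 0.033% were higher). The 34 shared genes are 64.2% of the EpiM list and 9.29% of the miRNA list. All 52 had a negative value with miRNA, with a median of -0.76 and a range of -2.37 to -0.08, where 63.3% of all genes had one and the median was -0.061. Dapk3 was at 5.18 ± 6.67 TPM with miRNA and 28.6 ± 29 TPM with caput sperm alone (SD), a change of -2.37 ± 0.32 (SE, limma, adjusted p = 3.57e-08). Cebpb changed by -1.77 ± 0.26 there and Pcbp1 by -1.54 ± 0.20, at 93.5 ± 43.4 against 283.7 ± 197.1 TPM (SD). Of the 18 not called there, Rab22a, a GTPase of early endosomes, and Fam122a, an inhibitor of protein phosphatase 2A, were picked after their values were seen and had changes of -0.21 ± 0.20 and -0.08 ± 0.25 (SE, limma, adjusted p = 0.739 and 0.935). A fit over both cohorts tested whether EpiM minus GFP differed from miRNA minus caput alone. The controls are unlike, since GFP embryos were injected while those of this cohort are given as caput sperm alone. In limma the fit over both cohorts called 0 of 11228 genes, of which 711 had an unadjusted p under 0.05. Of the 52 genes 43 had a negative difference there, with a median of -0.34, and 12 had an unadjusted limma p under 0.05. They were chosen for their fall with EpiM, which favours this direction. With no call the changes with EpiM and with miRNA are not shown to be equal.

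Limma called no gene between tRF and caput sperm alone, while 723 of 12106 had an unadjusted p under 0.05. The 52 genes had a median change of -0.31 there and 46 negative values, where 64.2% of all genes were negative, and 14 of them had an unadjusted p under 0.05 in that direction. In the fit over both cohorts, EpiM minus GFP was called different from tRF minus caput alone for 1 gene (0.00891%), Hdgf. It differed by -1.33 ± 0.27 (SE, limma, adjusted p = 0.0143) and also held the smallest p with EpiM. All 52 genes had a negative difference there, with a median of -0.90, and 44 had an unadjusted limma p under 0.05. Dapk3, at -1.82 ± 0.57, and Chpt1, at -1.78 ± 0.43 (SE), differed by more without being called. The 52 were chosen for their fall with EpiM, which favours this direction. Hdgf was at 156.4 ± 54 TPM with tRF and 196.9 ± 85.2 TPM with caput sperm alone (SD, n = 30 and 32). For the same cohort, 31 embryos of cauda sperm gave the sperm source at this stage: 218 genes were higher with caput than with cauda sperm (1.8%) and 0.0331% were lower, and 16 of these 218 were lower with EpiM here (7.34%, against 0.466% of all genes tested), with a median change of -0.16 and 165 negative values.

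**Figure D5:**
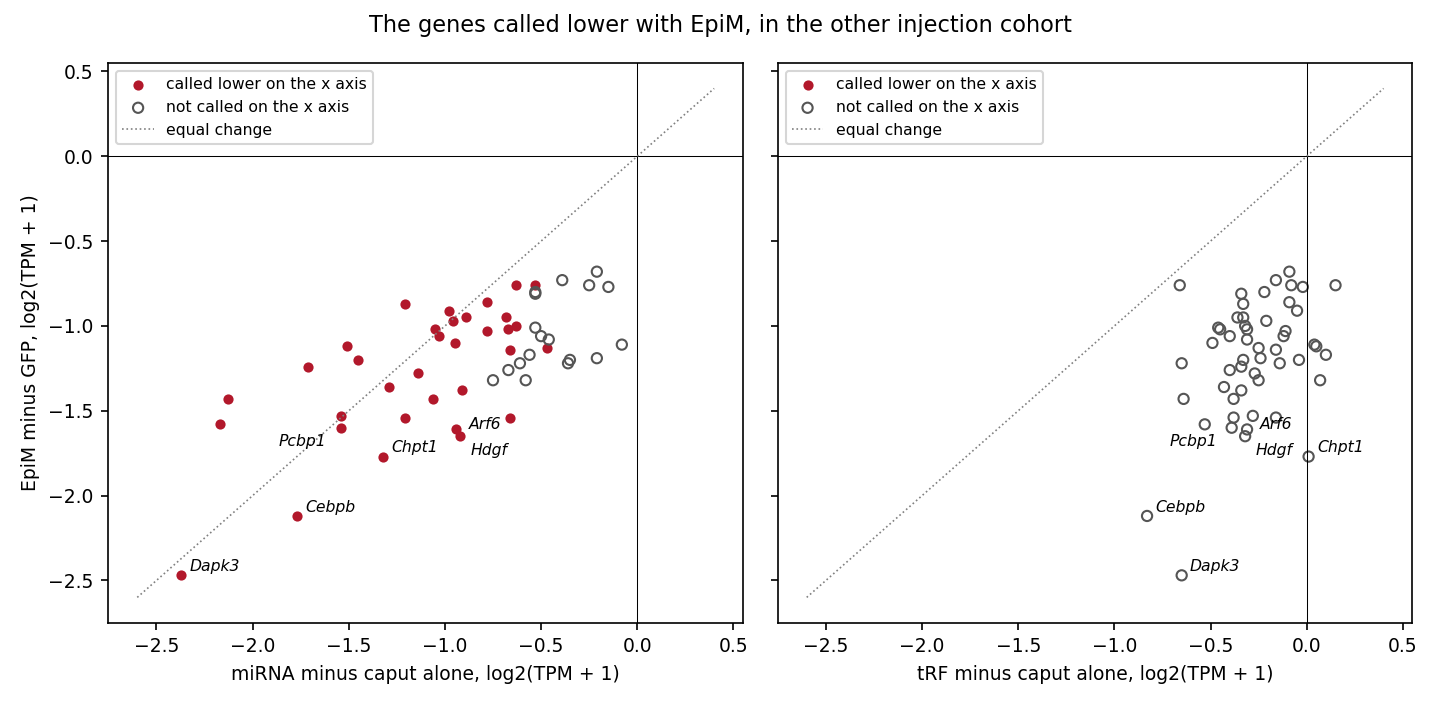
Log2 change of the 52 genes lower with EpiM that were tested in both cohorts, EpiM minus GFP (y axis) against miRNA minus caput alone (x axis, left) and tRF minus caput alone (x axis, right), all on the log2(TPM + 1) scale, with a dotted line of equal change. With miRNA 34 genes, filled, were called lower and all 52 lie left of 0, and with tRF none was called.

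Of the genes that mark the lineages of the blastocyst 1 was called, where 0.466% of all genes tested were called. At that share lists of this size would hold few calls or none, so the counts are not read as a trait of the lineages. None of 27 trophectoderm genes was called, and 14 of the 27 values were negative. Eomes, a trophectoderm transcription factor, had the smallest p of that list, at 46.5 ± 52.6 TPM with EpiM and 52.4 ± 38.2 TPM with GFP (SD, limma, adjusted p = 0.31). Of 22 pluripotency genes of the inner cell mass none was called, with a median of 0.16 and 4 negative values. Nanog was at 562.3 ± 285.8 against 532.7 ± 329.7 TPM (SD), with a fitted change of 0.37. Pou5f1 was at 418.3 ± 327.3 against 482.5 ± 346.5 TPM (SD), with a fitted change of 0.17 although its EpiM mean was the lower. Klf2, which belongs to that list, was at 4.96 ± 4.25 against 9.33 ± 6.74 TPM (SD, limma, adjusted p = 0.146), with a fitted change of -0.94. Of 18 primitive endoderm genes Gata6 was called lower, at 40.8 ± 26.7 TPM with EpiM and 76.0 ± 38.1 TPM with GFP (SD, 1.93-fold, limma, adjusted p = 0.0482). Gata6 is also made in early trophectoderm and the inner cell mass. The primitive endoderm list had a median of 0.07, with 6 of 18 values negative. Of the fellow markers of Gata6, Sox17 was at 3.84 ± 6.98 against 6.1 ± 18.7 TPM (SD), with a fitted change of 0.24. Pdgfra was at 1.1 ± 1.47 against 1.43 ± 3.04 TPM (SD), with a fitted change of 0.06. Gata4 was at 1.87 ± 3.39 against 1.57 ± 4.3 TPM and Dab2 at 236.5 ± 160.5 against 186.1 ± 106.8 TPM (SD). Their fitted changes were 0.38 and 0.14, and none of these fellow markers was called. In single whole embryos, fewer cells of a type and less RNA per cell cannot be told apart.

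Calls in lists on stress and on the response to small RNA are given here beside the 0.466% called among all genes tested. At that share lists of this size would hold few calls or none, so the counts are not read as a trait of the lists. None of 18 genes that make and use microRNAs was called, with values between -0.38 and 0.35 and Ddx6, a helicase of translational repression, at 4.11 ± 2.3 against 5.48 ± 2.28 TPM (SD, limma, adjusted p = 0.888). None of 14 genes of interferon signalling and RNA sensing was called, with a median of 0.07, and Irf9 and Eif2ak2 were at 7.41 ± 3.56 against 6.29 ± 3.72 TPM and at 2.08 ± 2.49 against 2.18 ± 1.34 TPM (SD). Of 18 genes of the integrated stress response and of 18 KLF and C/EBP factors Cebpb was the sole call, with medians of -0.04 and -0.13. None of 21 p53 targets, 23 apoptosis genes, 33 chaperones, 39 proteasome genes, 80 respiratory chain genes, 23 genes of glucose breakdown, 26 genes of cholesterol synthesis, 60 clustered histones, 20 imprinted genes, 22 Polycomb genes, 31 silencing genes, 16 Hippo genes, 28 genes of cell division or 10 genes of the 2-cell burst was called, and their medians lay between -0.06 and 0.17. Arf6 was the sole call among 27 genes of junctions and polarity, whose median was -0.02.

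Markers of other cell types were summed in each embryo. The summed TPM of 14 cumulus and granulosa genes was 1.27 to 18.8 with EpiM and 0.75 to 26.5 with GFP, that of 12 spermatid and sperm genes 0 to 10.5 and 0 to 9.67, with Akap4, Smcp and Acrv1 at 0 in every embryo of both groups, and that of 7 fibroblast genes 0 to 0.7 and 0 to 1.1. The 14 epididymal genes summed to 1.71 to 185.5 TPM with EpiM and 2.44 to 107.8 TPM with GFP, mostly Wfdc15a, and 5 red blood cell genes to 0 to 25.2 and 0 to 10.8 TPM. The summed TPM of 4 Y-linked genes reached 1 in 16 of 25 EpiM embryos and 10 of 26 GFP embryos. For 9 library measures the group labels were permuted inside each session, and the adjusted p was 0.907 for each (100000 permutations, two-sided), with an unadjusted p of 0.145 for the Y-linked sum and 0.907 for the number of genes at 1 TPM. With the Y-linked sum as a covariate 36 genes were called lower, all of them among the 53, and with the number of genes at 1 TPM as a covariate 79 were called, including all 53.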

How the data were processed

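RNA of single blastocysts was sequenced by Smart-seq2, and the authors deposited TPM per gene for each embryo, per the labels. Per the submitters' processing notes Bowtie and build mm10 were used; versions, the counting step and the annotation are not given in the sources used here. The deposited TPM list 23845 genes and sum to 999998.77 to 1000000.91 per library, so the depth is unknown and no count model was used. Gene symbols turned into dates (27) were put back by way of the transcript IDs in the same rows. In a table used for the other cohort, 2 further columns of per-sample values match no label and were not used. No pair of libraries was identical. Growth notes state 28 h for every sample, against a stage label of blastocyst, which was used.

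Groups and sessions come from the labels. The lowest-numbered pair of sessions was merged. Genes at 1 TPM or more in at least 13 EpiM and GFP embryos were tested with limma 3.58.1 in R 4.3.3 on log2(TPM + 1), with terms for group (EpiM, GFP, cauda) and for session, robust moderated statistics with a trend on mean level, and p-values adjusted over all genes tested by Benjamini and Hochberg; a gene was called under 0.05. A fold is 2 raised to the fitted change, and the added 1 lowers that of low genes. Other comparisons were fitted in the same way over the groups of their table, and differences between comparisons in a fit over both tables; the difference against tRF was added to the planned one against miRNA. On simulated data for 11384 genes, 153 of 200 genes changed by 1 on the log2 scale were recovered with 9 false calls, and 18 of 200 changed by 0.5. The simulated noise was normal and independent between genes and embryos. It held no shifts shared by many genes of an embryo and no excess of zeros, so these rates may not carry over to the real libraries.

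Named genes are called genes with a mean of 5 TPM or more in the higher group and no symbol of a predicted gene: the 10 largest changes, the 5 smallest p, up to 3 of each of 29 gene lists and up to 8 caput-high genes, with the 3 smallest p of a direction without calls and up to 2 genes of a list without calls. The members and lists were chosen with earlier results of these data known. Promoter windows and positions are from RefSeq GRCm38.p6. Some genes are not reported here.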

Additional observations from a re-analysis of the deposited data

Results flagged for a closer look

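Hdgf was flagged because its difference between EpiM and GFP embryos was called unlike that between tRF and caput embryos of the other cohort. The direction was not particular to Hdgf. All 52 genes lower with EpiM that were tested in both cohorts had a negative difference of this kind, with a median of -0.90. The change was -1.65 ± 0.25 for EpiM minus GFP and -0.32 ± 0.13 for tRF minus caput alone, and the test of the difference gave -1.33 ± 0.27 (SE, limma, adjusted p = 0.0143 over 11228 genes). Of 25 EpiM embryos 23 lay below the GFP median. Against miRNA minus caput alone, where Hdgf changed by -0.92 ± 0.13, the difference of -0.73 ± 0.27 did not pass (limma, adjusted p = 0.554). Cohort, kind of control and injected RNA cannot be told apart in these differences.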

How the results depend on the processing

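The 53 genes called lower had a negative value under each of the 24 alternatives in which they were tested. They were chosen for that sign in the main fit, whose embryos the alternatives reuse, so this is no separate support. The number of calls did not hold. It was 25 with a pseudocount of 0.1, 32 with no filter on low values, 9 with EpiM and GFP embryos only, with the merged sessions kept apart or not, 0 with embryos averaged by session and group (limma, 443 genes at an unadjusted p under 0.05), 7 without the merged session, 1 without session 0207, 28 without session 0211 and 2 in sessions 0207 and 0208 alone. In the other 15 alternatives it lay between 36 and 79. The caput-high genes called lower, 17 in all, were 5 with EpiM and GFP embryos only, in either form, 0 with embryos averaged by session and group, 4 without the merged session, 0 without session 0207, 11 without session 0211 and 2 in sessions 0207 and 0208 alone, and their median change lay between -0.36 and -0.89. A single gene was called higher with no filter (6430550D23Rik). Pank4 was the 1 gene higher with no session term, with session as a random effect, with session and round, and with all groups and sessions kept apart. It was also the 1 gene higher with genes at 1 TPM as a covariate, with quantile normalization and with the GC trend removed. Round stands for a 1 or 2 in the titles, which cauda embryos carry too, and the titles do not say what it counts. With the embryo number as a replicate block 45 genes were lower, all among the 53, and 15 caput-high genes. Yrdc and Gata6 were the named genes whose call was lost. Same-numbered EpiM and GFP embryos of a session and round had correlations of -0.11 to 0.12 (9 pairs, 2 over 0.1), after session and group means were removed. These few values cannot settle whether the numbers pair the samples, which were treated as unpaired in the main fit. Hdgf and Cebpb were called in 22 of 24 alternatives, with adjusted p up to 1 where they were not, Pdxp and Eif3b in 11 of 24, and Slc44a1, Yrdc, Ino80b and Gata6 in 12 of 24. Fewer embryos or units entered the fits that leave out a session or use means. Without session 0208, which held 7 EpiM and 8 GFP embryos, 49 genes were called. Without session 0207, which held 7 and 7, 1 was called. The cause of these changes was not tested. Leaving out the libraries under 9000 genes gave 42 genes. That alternative, sessions 0207 and 0208 alone, EpiM and GFP embryos with merged sessions, and all groups with sessions kept apart were chosen after seeing the data.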

Other observations

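An EpiM embryo of session 0208 (round 1, embryo 1) held transcripts of the 2-cell stage burst at levels not seen in other embryos with EpiM. Dux, the transcription factor that opens this burst, was at 93 TPM, against at most 7.22 TPM in the 24 other EpiM embryos, 5.99 TPM in GFP embryos and 2.24 TPM in cauda embryos. Zscan4c was at 33.4 TPM, against at most 3.24, 9.93 and 0.86 TPM, and the related Zscan4d at 9.59 TPM, against at most 0.52, 3.05 and 0.53 TPM. Gm8300 was at 257.9 TPM there, against at most 14 TPM in other EpiM embryos, 53.3 TPM in GFP embryos and 154.5 TPM in cauda embryos. Tcstv1, at 24.5 TPM, was within the range of GFP embryos, which reached 70.4 TPM. The library had 10570 genes at 1 TPM, and this embryo was picked after its values were seen. Dux, Zscan4, Tcstv and their neighbours are families of near-identical copies, so the split of reads between copies is uncertain.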
